A study of Mus musculus with 6 samples.

Results

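A group of 7 genes of secreted antimicrobial and acute-phase proteins were followed in the mouse macrophage-like line RAW264.7, with and without an Fbxw11 vector. They were Lcn2, Slpi, Saa3, Lyz1, Lyz2, S100a8 and S100a9, 7 of the 56748 genes in the deposited table. The genes were chosen by name with their values in the Fbxw11 against control contrast already known, so their differences in that contrast are given as a description and not as a test. Cells of the Fbxw11 group (3 libraries) had been infected with a lentivirus holding pMSCV-Fbxw11-pGk-GFP, and cells of the control group (3 libraries) with a control vector. The control libraries are named GFP in the labels, which say nothing more of that vector's content. Cells of both groups were grown in the same medium with fetal bovine serum and antibiotics and were sorted before RNA extraction. No stimulus and no time after infection is named. Fbxw11 encodes an F-box protein that picks substrates for the SCF ubiquitin ligase, among them inhibitors of NF-kB, and the series title places the work in macrophage polarization. Separate infections or cultures behind the 3 libraries of each group are not stated, so what the p-values weigh is library-to-library spread alone, and that could be technical.

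Secreted antimicrobial proteins act outside the cell that makes them. Lcn2 (lipocalin 2) binds bacterial siderophores and so withholds iron. Slpi is a small inhibitor of neutrophil serine proteases with antimicrobial activity of its own. Saa3 is the serum amyloid A of mouse macrophages and fat tissue, where other Saa genes are expressed mainly in liver. Lysozymes cut the peptidoglycan of bacterial cell walls. In the mouse Lyz2 is the myeloid gene and Lyz1 the gene of intestinal Paneth cells. S100a8 and S100a9 form calprotectin, a heterodimer that binds zinc and manganese and is most abundant in neutrophils. Genes for several of these proteins are known to be induced in activated macrophages through NF-kB with its co-regulator IkB-zeta, C/EBP factors and STAT3.

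Levels are FPKM, fragment counts that the authors scaled to gene length and library size. Between 16191971 and 18951653 reads per library could be recovered from the table. Fbxw11 itself stood at 35.8 to 36.5 FPKM in the control and 268 to 274 FPKM in the Fbxw11 libraries, as the labels say. Of 8 macrophage markers 7 reached a mean of 1 FPKM, with summed levels of 2080 to 2130 FPKM in control and 2260 to 2350 FPKM in Fbxw11 libraries. In limma 3 of them (Adgre1, Itgam, Fcgr1) rose at an adjusted p under 0.05, beside 4.60% of all tested genes. Cd14, the most abundant, did not pass (adjusted p = 0.206). Csf1r was lower, at 154 ± 4.32 and 147 ± 2.43 FPKM with groups that did not overlap, and did not pass either (adjusted p = 0.290). The part of these markers in the results on the secreted proteins was not tested. The members S100a8 and S100a9, genes most abundant in neutrophils, were left out of the 9 neutrophil markers. S100a8 averaged 3.34 FPKM without and 4.49 FPKM with the Fbxw11 vector, and S100a9 had 0 reads. Of the 9 markers none reached a mean of 1 FPKM, and Ly6g, Mpo, Elane and Retnlg had 0 reads in all 6 libraries. Their summed level was 0.236 to 0.471 FPKM in control and 0.370 to 0.663 FPKM in Fbxw11 libraries. Summed hepatocyte and epithelial markers stayed at or under 0.102 FPKM. Control library 3 and Fbxw11 library 3 stood apart from the other 4 on the next principal component after the group (23.7% of the variance).

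RefSeq promoter windows (GRCm38.p6, 250 bases before to 50 after the annotated start) were matched by symbol for 7 of 7 genes. The windows of Lcn2 and Slpi, the 2 genes with the largest differences, are shown on the minus strand, Lcn2 at chr2:32387690-32387989 and Slpi at chr2:164356458-164356757. Capitals mark a C/EBP-type motif, TTGCNNAA, searched on both strands, which begins 216 bases before the start in Lcn2 and 241 bases before it in Slpi.
Lcn2: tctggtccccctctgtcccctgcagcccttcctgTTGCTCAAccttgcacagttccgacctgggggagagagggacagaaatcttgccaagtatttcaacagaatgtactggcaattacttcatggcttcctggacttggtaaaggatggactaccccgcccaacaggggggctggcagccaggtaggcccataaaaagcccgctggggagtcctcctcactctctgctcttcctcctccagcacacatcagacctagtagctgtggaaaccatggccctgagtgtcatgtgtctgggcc
Slpi: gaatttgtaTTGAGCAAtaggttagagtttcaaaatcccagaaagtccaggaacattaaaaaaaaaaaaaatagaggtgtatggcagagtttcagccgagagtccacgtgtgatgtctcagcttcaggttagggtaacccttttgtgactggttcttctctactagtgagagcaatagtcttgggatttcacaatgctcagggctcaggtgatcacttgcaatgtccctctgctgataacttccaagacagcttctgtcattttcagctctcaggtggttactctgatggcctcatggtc

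The C/EBP-type motif was in 5 of the 7 windows (Lcn2, Slpi, Saa3, Lyz1 and S100a9), and in 10.8% of all 32851 windows of the same length. Both Lcn2, which was higher with Fbxw11, and S100a9, which had no reads, carry it, and the window of Lyz2 does not. The motifs of AP-1 (TGANTCA, in 7.81% of all windows), of STAT factors (TTCNNNGAA, 8.30%) and the NF-kB consensus (8.46%), each searched on both strands, were in 0 of the 7. TATAAA was in the windows of S100a8 and S100a9 and in 13.6% of all windows. The marked motifs do not overlap each other. These letters say nothing of binding, and sites outside the windows were not searched.

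The 2 lysozyme genes are neighbouring copies on chromosome 10. Their start regions (100 bases before to 50 after the start, GRCm38.p6, minus strand, Lyz1 at chr10:117292819-117292968 and Lyz2 at chr10:117282223-117282372) are shown for comparison. Capitals mark the positions at which they differ, and 141 of 150 bases (94.0%) are identical. Over the whole windows, compared without gaps, 201 of 300 bases (67.0%) are. Most of the bases shown lie before the start, so their identity does not measure how far reads can be confused.
Lyz1: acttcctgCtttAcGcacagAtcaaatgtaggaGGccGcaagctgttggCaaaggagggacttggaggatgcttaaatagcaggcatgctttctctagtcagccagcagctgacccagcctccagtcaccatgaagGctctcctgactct
Lyz2: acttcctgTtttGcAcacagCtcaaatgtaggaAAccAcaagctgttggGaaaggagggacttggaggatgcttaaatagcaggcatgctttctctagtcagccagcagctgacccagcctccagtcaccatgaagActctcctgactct

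In the control libraries the levels spanned from 2346 FPKM to 0. Lyz2 led at 2305, 2428 and 2305 FPKM and ranked 6 of 10898 tested genes by mean level over all libraries. Lcn2 followed at 55.5, 60.6 and 53.6 FPKM. Next came Lyz1, at 33.2 to 38.02 FPKM, then Slpi at 10.9 to 13.1, Saa3 at 6.77 to 8.15 and S100a8 at 2.80 to 4.21 FPKM. The control values of neighbours in this order did not overlap, and the order was the same in the Fbxw11 libraries. S100a9 had 0 reads in every library, which does not show that its RNA was absent. A floor of 3 reads, a set value and not a computed bound, would stand at 0.299 to 0.353 FPKM per library. The table's gene length sets these levels. It was 2623 bases for Lcn2, against 915 bases for the longest coding Lcn2 transcript in GENCODE M21, so the same reads per base of that transcript would give a control level of 162 in place of 56.6. The order was unchanged when every gene was scaled in this way. The 7 genes took 0.331 to 0.349% of reads in control and 0.381 to 0.389% in Fbxw11 libraries, and Lyz2 made up 88.5 to 93.3% of them.

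Lcn2 and Slpi were the members with the largest differences, each at more than 2-fold the control level. Lcn2 stood at 55.5, 60.6 and 53.6 FPKM in control libraries 1 to 3 and at 121.5, 126 and 129 FPKM in Fbxw11 libraries 1 to 3. The groups were far apart, the lowest Fbxw11 library being at 2.0 times the highest control. The means were 56.6 ± 3.63 and 125 ± 3.57 FPKM (SD, n = 3 each), a ratio of 2.21 and a log2 fold change of 1.13 (SE 0.052), computed throughout from log2(FPKM + 1). Between 2385 and 3058 reads lay behind each control and between 5191 and 5896 behind each Fbxw11 value. In these bulk samples, more cells expressing a gene and more RNA per cell cannot be told apart.

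Slpi stood at 13.1, 11.7 and 10.9 FPKM in the control and at 28.8, 27.5 and 23.6 FPKM in the Fbxw11 libraries. The groups did not overlap, and library 3 was the lowest in each. The means were 11.9 ± 1.11 and 26.6 ± 2.68 FPKM (SD, n = 3 each), a ratio of 2.24 and a log2 fold change of 1.10 (SE 0.090). Without library 3 of both groups the log2 fold change was 1.12 for Slpi and 1.08 for Lcn2. FPKM of Lcn2 over FPKM of Slpi within a library was 4.24 to 5.19 in control and 4.22 to 5.44 in Fbxw11 libraries, ranges that overlap. The deposited table places Lcn2 at 32274645 to 32278264 and Slpi at 164195990 to 164231015 of chromosome 2. Its positions differ from those of GRCm38, so here and for the other genes they carry no build. The span of Slpi in the file is 35026 bases and holds a microRNA gene, Mir7678, with 0 reads.

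**Figure D1:**
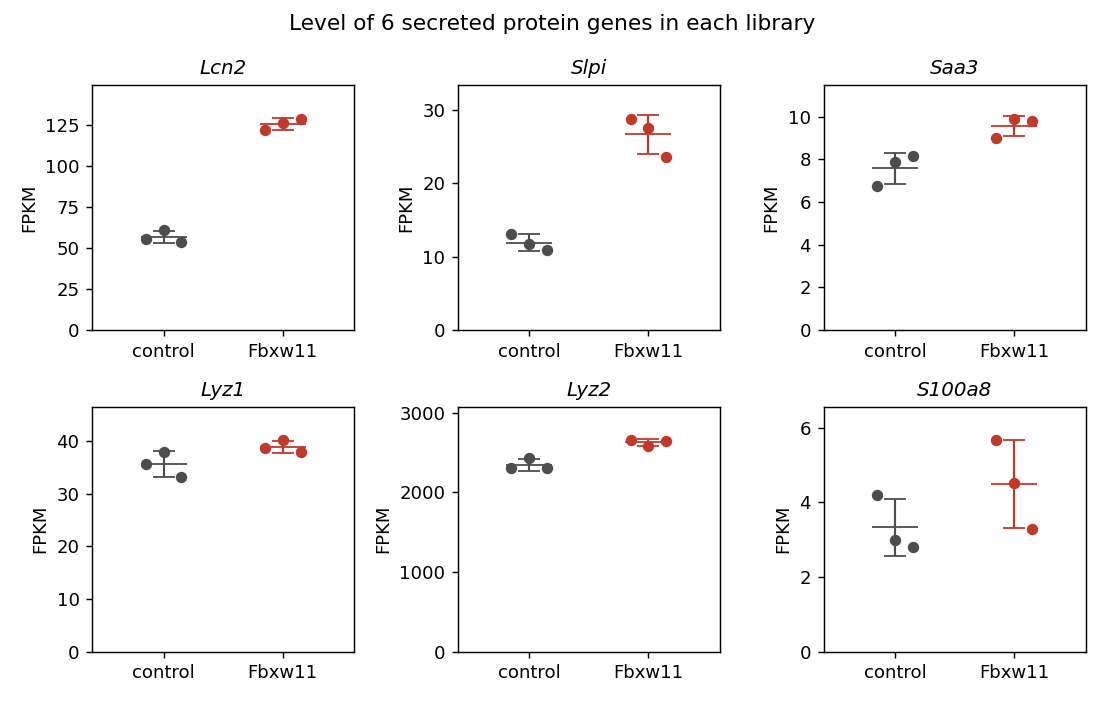
FPKM (vertical axes, from 0, a scale of its own for each gene) of 6 genes in the 3 control libraries (grey) and the 3 Fbxw11 libraries (red). Points are libraries in the order 1 to 3, the long bar is the mean and the error bar the SD. Lcn2, Slpi, Saa3 and Lyz2 show groups that do not overlap, while those of Lyz1 and S100a8 do. S100a9 had 0 reads and is not drawn.

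Saa3 and Lyz2 were higher by much less. Saa3 stood at 6.77, 7.87 and 8.15 FPKM in the control and at 9.02, 9.91 and 9.80 FPKM in the Fbxw11 libraries, on 290 to 461 reads each. The groups did not overlap, but the lowest Fbxw11 library was at only 1.11 times the highest control. The means were 7.59 ± 0.729 and 9.58 ± 0.482 FPKM, a ratio of 1.26 (log2 fold change 0.30, SE 0.072). Of the 50-base stretches of its longest coding transcript 3.91% also occur in transcripts of other genes. The table places Saa3 at 46361422 to 46365124 of chromosome 7.

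Lyz2 stood at 2305, 2428 and 2305 FPKM in the control and at 2653, 2583 and 2649 FPKM in the Fbxw11 libraries. The groups did not overlap, by a margin of 1.06 times. The means were 2346 ± 70.9 and 2628 ± 39.2 FPKM, a ratio of 1.12 (log2 fold change 0.16, SE 0.039). In absolute terms this difference, 282 FPKM, was above that of Lcn2, 68.7 FPKM. FPKM of Lyz2 over FPKM of Lcn2 was 40 to 43.0 in the control and 20.5 to 21.8 in the Fbxw11 libraries.

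Lyz1 stood at 35.7, 38.02 and 33.2 FPKM in the control and at 38.7, 40.1 and 37.96 FPKM in the Fbxw11 libraries, groups that overlap. Its log2 fold change was 0.13 (SE 0.054). Reads of Lyz1 made up 1.36 to 1.48% of all lysozyme reads, with overlapping ranges in the 2 groups. Of the 50-base stretches of the Lyz1 transcript 16.1% also occur in Lyz2. The sources used here do not give how reads matching both genes were assigned, so the level of Lyz1 is uncertain. With the reads of both genes summed, the log2 fold change was 0.16. The copies lie 5476 bases apart in the table, Lyz2 at 117113236 to 117118226 and Lyz1 at 117123702 to 117128773 on chromosome 10.

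The calgranulin pair was uneven. S100a8 was detected at 4.21, 3.0 and 2.80 FPKM in the control and at 5.66, 4.52 and 3.30 FPKM in the Fbxw11 libraries, and S100a9 was not detected. The S100a8 groups overlap (3.34 ± 0.759 against 4.49 ± 1.18 FPKM, log2 fold change 0.33, SE 0.185), and library 3 was the lowest in each. With the replicate number as a block in limma the SE was 0.075, and S100a8 still did not pass (adjusted p = 0.0744). Only 33 to 64 reads lay behind each S100a8 value, so that 64 reads in Fbxw11 library 1 carry a counting interval of 49.3 to 81.7 (exact Poisson, 95%, counting error only). No 50-base stretch of the longest coding transcripts of S100a8 and S100a9 occurs in another gene. The file places S100a8 at 90576285 to 90577342 and S100a9 at 90599939 to 90603028 on chromosome 3.

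Over the whole table, 1007 of 10898 tested genes passed an adjusted p of 0.05 in limma (9.24%), of which 501 were higher (4.60%) and 506 lower (4.64%) with Fbxw11. On the TPM scale the split was 348 and 712, and over plain read sums 381 and 691. S100a9 was not tested. Of the 6 tested members 4 passed, all of them higher (Lcn2, Slpi, Saa3 and Lyz2), and the same 4 had groups that did not overlap, as did 15.6% of tested genes in that direction. Since the members were chosen with this contrast in view, nothing is read from these counts. By log2 fold change Lcn2 ranked 13 and Slpi 15 of 10898, Saa3 382 and Lyz2 1241. Lcn2 and Slpi passed under each of 15 alternative settings. Saa3 and Lyz2 lay just under the threshold (adjusted p = 0.0499 and 0.0478 in limma). With any single library left out these 2 did not pass, at log2 fold changes of 0.23 to 0.35 and 0.15 to 0.19. They also did not pass on the TPM scale, over plain read sums or without library 3 of both groups. The median log2 fold change was 0.32 over the 6 tested members and 0.0029 over all tested genes.

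**Figure D2:**
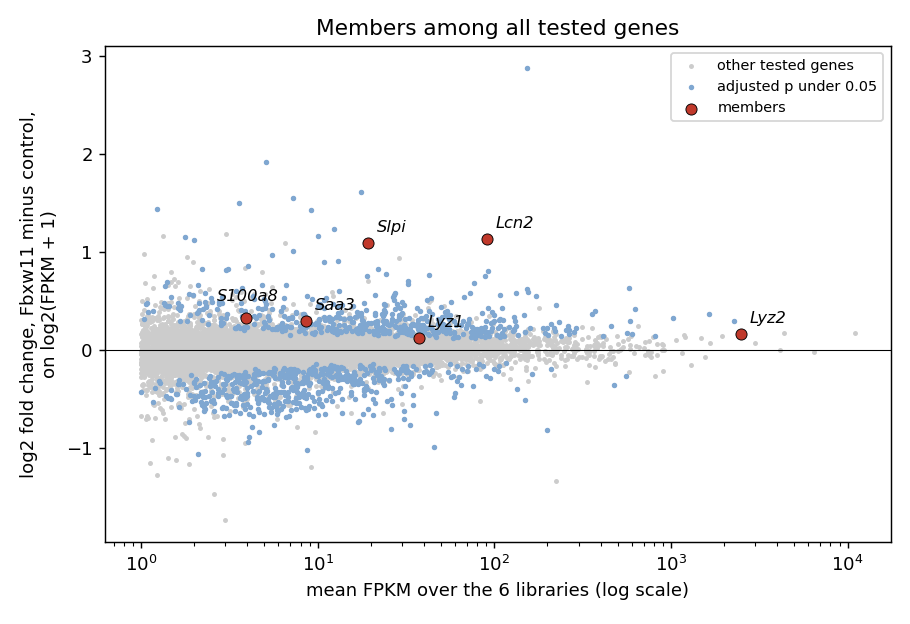
Log2 fold change from log2(FPKM + 1) values (vertical axis) against mean FPKM over the 6 libraries (horizontal axis, log scale) for the 10898 tested genes. Blue points passed an adjusted p of 0.05 and the 6 tested members are red. Lcn2 (1.13) and Slpi (1.10) lie near the upper edge of the cloud, and Lyz2 (0.16) at its right end.

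The genes beside the members in the genome were looked up as well. For each member the nearest gene with a mean of at least 1 FPKM was taken on either side. Of these 10 genes other than members 0 passed in limma, beside 9.24% of all tested genes. An unadjusted p under 0.05 was found for 2, and voom on recovered reads called 0. With so few genes nothing is read from these counts. The 10 genes lay 1318 to 1757997 bases from their members. Beside Lcn2, Bbln stood at 5.19 and 6.14 FPKM (log2 fold change 0.21, adjusted p = 0.106) and Ptges2, which encodes a prostaglandin E synthase, at 2.59 and 2.51 FPKM. On either side of Slpi, the kinase gene Stk4, 198546 bases away, stood at 21.4 and 19.6 FPKM (log2 fold change -0.12, adjusted p = 0.105). The proteoglycan gene Sdc4, 35152 bases away, stood at 82.2 and 87.4 FPKM (log2 fold change 0.09, adjusted p = 0.237).

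The genes whose profile over the 6 libraries was most like that of Lcn2 and Slpi were found by the smallest root mean square difference of centred log2(FPKM + 1) values among tested protein-coding genes other than the members. For Lcn2 they were Urah (0.139), Gm13889 (0.142) and Il27 (0.154), which encodes a subunit of the cytokine interleukin-27. For Slpi they were Trem3 (0.0890), a receptor gene of myeloid cells, Slfn1 (0.146), of the Schlafen family, and Ccrl2 (0.158), an atypical chemokine receptor. By the same measure Lcn2 and Slpi differed by 0.134, less than Lcn2 and Urah, and only Trem3 was closer to Slpi than Lcn2 was. This measure takes in the group difference by which Lcn2 and Slpi were picked. The closeness of Lcn2, Slpi and the genes found is therefore no result apart from that difference. Trem3 was at 3.42 ± 0.558 and 7.67 ± 1.01 FPKM and Il27 at 7.21 ± 0.452 and 14.4 ± 1.69 FPKM (SD, n = 3 each, control before Fbxw11). Trem3 shared with Slpi its lowest values in library 3 of each group.

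**Figure D3:**
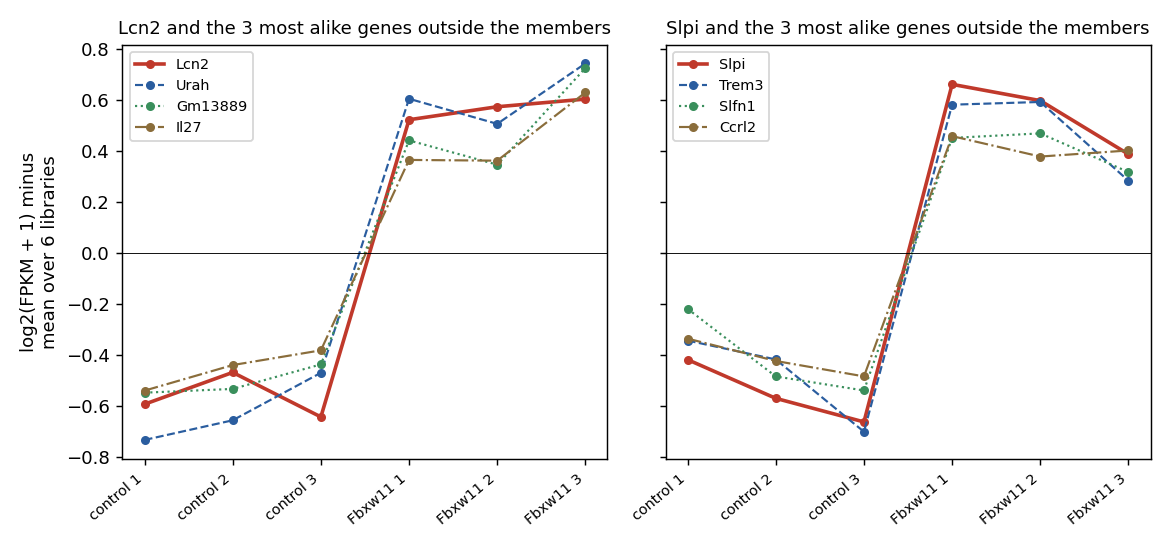
Log2(FPKM + 1) minus its mean over the 6 libraries (vertical axis) in each library (horizontal axis) for Lcn2, Slpi and the 3 genes outside the members most like each. Lines only join the values of a gene, since libraries of a group have no order. All 8 genes lie under 0 in the control and above 0 in the Fbxw11 libraries. That follows from picking Lcn2 and Slpi by their group difference and the rest by likeness to them.

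A list of 62 further antimicrobial and acute-phase genes was read from the same fit. Of these, 27 had 0 reads in every library, and 50, those 27 included, stayed under the filter, with at most 1.03 FPKM in a library. Of the 12 tested 2 rose (Wfdc17 and Mpeg1) and 1 fell (S100a10), beside 4.60% and 4.64% of all tested genes, and their median log2 fold change was 0.14. This list too was chosen with earlier results of these data known. Nothing is therefore read from these counts or from those by role below.

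Among antileukoproteases, the family of Slpi with its WAP domains, 1 of 2 tested genes rose, beside 4.60% of all tested genes. Wfdc17, a WAP protein gene of activated mouse macrophages, stood at 66.3, 71.4 and 59.8 FPKM in the control and at 108, 118 and 110.1 FPKM in the Fbxw11 libraries. The groups did not overlap, and it rose 1.70-fold (log2 fold change 0.76, SE 0.069, adjusted p = 0.00208). Wfdc21, the other tested, stood at 2.90 ± 0.459 and 4.23 ± 0.975 FPKM (adjusted p = 0.168) and was named after its value was seen. Wfdc17 is on chromosome 11, away from Slpi. Mpeg1, the pore-forming perforin-2 of macrophages, stood at 249, 244 and 242 FPKM in the control and 290.4, 279 and 278 FPKM in the Fbxw11 libraries. It rose 1.15-fold (log2 fold change 0.20, SE 0.032, adjusted p = 0.0127). The adjusted p was 0.0518 without control library 1 and 0.0690 without control library 2. It was the only tested gene of 13 granule and pore-forming proteins.

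None of 6 serum amyloids and pentraxins reached the filter, the highest value being 0.0632 FPKM (Apcs), and Saa4 averaged 0.00968 and 0.00892 FPKM. Saa1 and Saa2, the liver relatives of Saa3, had 0 reads. Of 11 other acute-phase genes none reached the filter. Complement C3 stood at 0.603, 0.617 and 0.631 FPKM in the control and at 0.848, 0.893 and 1.03 FPKM in the Fbxw11 libraries and was not tested, nor was Orm3, an orosomucoid, at 0.291 ± 0.194 and 0.686 ± 0.289 FPKM. Of the iron and copper binders only ceruloplasmin, Cp, was tested, at 23.4 ± 1.18 and 25.7 ± 0.850 FPKM (adjusted p = 0.154), and the iron hormone gene Hamp averaged 0.421 and 0.191 FPKM. All 5 defensin genes had 0 reads. Of the antimicrobial RNases, Rnase4 stood at 5.86 ± 0.136 and 6.75 ± 0.805 FPKM (adjusted p = 0.241) and Ang at 1.52 ± 0.388 and 1.57 ± 0.384 FPKM (adjusted p = 0.935). These 2 overlap in the genome on the same strand, so their reads may be shared.

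Of the other S100 genes 6 of 11 were tested and 1 fell, beside 4.64% of all tested genes. S100a10, the partner of annexin A2, stood at 75.2, 75.8 and 74.5 FPKM in the control and at 61.9, 67.1 and 65.2 FPKM in the Fbxw11 libraries. The groups did not overlap (log2 fold change -0.21, SE 0.038, adjusted p = 0.0194). The adjusted p was 0.0777 without control library 1, 0.0856 without control library 2 and 0.0626 without library 3 of both groups. The most abundant of them, S100a11, stood at 180 ± 13.02 and 158 ± 12.1 FPKM (adjusted p = 0.189) and S100a6 at 46.7 ± 3.64 and 43.04 ± 5.35 FPKM (adjusted p = 0.509). S100a13 leaned the other way, at 13.4 ± 0.777 and 15.4 ± 1.47 FPKM with groups that did not overlap (log2 fold change 0.19, adjusted p = 0.182). S100a4 (log2 fold change 0.14, adjusted p = 0.659) and S100a1 (log2 fold change 0.05, adjusted p = 0.778) did not pass either. These 5 were named after their values were seen.

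**Figure D4:**
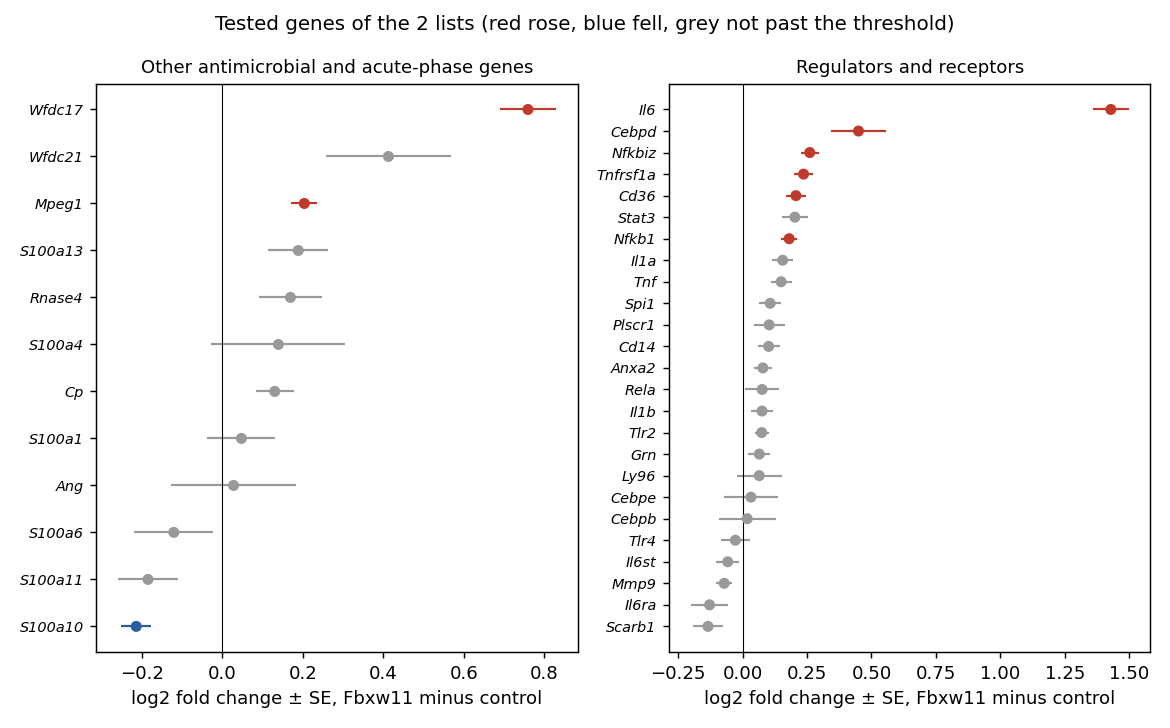
Log2 fold change from log2(FPKM + 1) values, with SE (horizontal axes) for the 12 tested further antimicrobial and acute-phase genes (left) and the 25 tested regulators and receptors (right). Red genes rose, the blue gene fell and grey genes did not pass an adjusted p of 0.05. Wfdc17 (0.76) and Il6 (1.43) have the highest values of their lists.

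Of 32 regulators, inducing cytokines and receptors 25 were tested, of which 6 rose, beside 4.60% of all tested genes. None fell in limma, beside 4.64% of all tested genes, with 0 falls at an unadjusted p under 0.05 and 0 in voom on recovered reads. The list was chosen with earlier results of these data known, so nothing is read from these counts or from those by role below. The median log2 fold change of the 25 tested genes was 0.08.

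Among transcription regulators 3 of 8 tested genes rose, beside 4.60% of all tested genes. The other 5 did not pass in limma. They were Cebpb (log2 fold change 0.02, adjusted p = 0.940), Cebpe (0.03, 0.885), Rela (0.08, 0.537), Spi1 (0.11, 0.177) and Stat3 (0.20, 0.0582). These 5 were named after their values were seen. Nfkbiz encodes IkB-zeta, the nuclear co-regulator that Lcn2 induction is known to need in mouse macrophages. It stood at 37.0, 34.9 and 35.7 FPKM in the control and at 42.6, 42.9 and 43.9 FPKM in the Fbxw11 libraries, groups that do not overlap (log2 fold change 0.26, SE 0.034, adjusted p = 0.00706). Nfkb1, the gene of the p105 precursor of NF-kB p50, rose, with means of 23.7 ± 0.296 and 26.9 ± 0.415 FPKM and a log2 fold change of 0.18 (adjusted p = 0.0173). Its adjusted p was 0.0777 and 0.0735 without control library 1 or 2, 0.0562 and 0.0563 without Fbxw11 library 1 or 2, and 0.0635 without library 3 of both groups. Cebpd, of C/EBP-delta, stood at 13.1, 13.3 and 13 FPKM in the control and at 18.5, 15.5 and 21.5 FPKM in the Fbxw11 libraries (log2 fold change 0.45, adjusted p = 0.0479). It kept its call without Fbxw11 library 2 (adjusted p = 0.0172) and lost it without each of the other 5 libraries (0.0580 to 0.136) and without library 3 of both groups (0.0938). It also lost it on the TPM scale (0.0564), over plain read sums (0.0570), with no filter on low values (0.135) and without the mean-variance trend (0.0626), and in all did not pass in 11 of 15 alternatives.

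Of the inducing cytokines and their receptors 2 of 7 tested rose, beside 4.60% of all tested genes. The other 5, named after their values were seen, did not pass in limma. Il6ra (log2 fold change -0.13, adjusted p = 0.328) and Il6st (-0.06, 0.481) leaned lower. Il1b (0.08, 0.335), Il1a (0.16, 0.0677) and Tnf (0.15, 0.0751) leaned higher. Il6, a cytokine that drives the acute-phase response through STAT3, stood at 4.58, 4.67 and 4.27 FPKM in the control and at 12.6, 15.1 and 13.8 FPKM in the Fbxw11 libraries (log2 fold change 1.43, adjusted p = 0.000362). Tnfrsf1a, a receptor of tumour necrosis factor, rose as well, with means of 21.1 ± 0.491 and 25.0 ± 0.713 FPKM and a log2 fold change of 0.24 (adjusted p = 0.0123). Its adjusted p was 0.0554 without control library 1 and 0.0634 without control library 2. Of the receptors and partners of the secreted proteins 1 of 10 tested rose, beside the same 4.60%. It was Cd36, a scavenger receptor that binds serum amyloid A, with means of 10.4 ± 0.240 and 12.2 ± 0.364 FPKM and a log2 fold change of 0.21 (adjusted p = 0.0234). With any single library left out it did not pass (adjusted p 0.0522 to 0.0985), nor without library 3 of both groups (0.0981). The other 9, named after their values were seen, did not pass in limma. Mmp9 (log2 fold change -0.07, adjusted p = 0.231), Scarb1 (-0.13, 0.2155) and Tlr4 (-0.03, 0.808) leaned lower. Tlr2 (0.07, 0.166), Ly96 (0.06, 0.700), Cd14 (0.10, 0.206), Anxa2 (0.08, 0.238), Plscr1 (0.10, 0.347) and Grn (0.07, 0.395) leaned higher.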

How the data were processed

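The data are 1 table of gene FPKM values with 1 column per library, deposited by the authors, with gene names, lengths and coordinates. FPKM are fragments scaled by the authors to gene length and library size before deposit. The submitters' processing notes name mm10 as build, but of 52125 gene identifiers shared with GENCODE M21 (GRCm38) 2.92% had the same start and end, so the table's coordinates are given without a build. The sources used here name no aligner, counting tool, strand setting or filter.

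Within a library, FPKM times gene length came in steps of equal size, the worth of 1 read, which gave back the reads (100% whole within 0.02 reads). The library size used by the authors was 1.014 to 1.018 times the recovered sum in control and 0.987 to 0.993 times in Fbxw11 libraries. Tests used limma 3.58.1 in R 4.3.3 (lmFit, eBayes with trend, two-sided, Benjamini-Hochberg) on log2(FPKM + 1) for the 10898 genes averaging 1 FPKM or more, without covariates. The pseudocount of 1 understates changes of low genes. The procedure was tested on simulated data. No pair of libraries within a group was a duplicate: chi-square divided by its degrees of freedom was 2.34 to 5.43.

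The members and lists were chosen with earlier results of these data known. Named genes are the members, every list gene past the threshold or else the 2 most abundant of its role, and the 3 profiles most like each of 2 members, members left out. Genes named outside this rule are said in the text to be so or are neighbours of Lcn2 and Slpi, markers, or the liver serum amyloids Saa1 and Saa2. 0 other sample columns were present.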

Additional observations from a re-analysis of the deposited data

How the results depend on the processing

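Over 15 alternatives Lcn2 stayed between 1.08 and 1.18 and Slpi between 1.04 and 1.18 on the log2 scale, past the threshold in each, as were Wfdc17, Nfkbiz and Il6. The number of members past the threshold, 4, was 2 with no filter on low values, on the TPM scale, without the mean-variance trend, over plain read sums, without library 3 of both groups, and without any single library (2 to 2). It was 3 with a pseudocount of 0.1 FPKM (Saa3 at an adjusted p of 0.0509) and with the replicate number as a block (Lyz2 at 0.101). Saa3 and Lyz2 were the members lost, each in 12 alternatives, with adjusted p up to 0.149 and 0.660. With no filter, 289 genes rose and 307 fell. Without library 3 of both groups 336 genes fell and 3 regulators and receptors rose. With a single library left out, 190 to 418 genes rose and 219 to 383 fell, 1 to 3 of the further antimicrobial genes rose and 0 to 1 fell, and 2 to 4 regulators and receptors rose. Replicate numbers are shared by the groups, but same-numbered libraries deviated together with correlations of 0.0361, 0.0405 and 0.189, so they were not treated as pairs. With the number as a replicate block 303 genes rose, 318 fell and 3 regulators and receptors rose, Nfkb1 (adjusted p = 0.0679), Cebpd (0.0641) and Cd36 (0.0626) no longer passing, and not every library correlated best with its own number. With a single library left out Ang ranged from -0.087 to 0.159; its sign turned to -0.087 without control library 3, -0.045 without Fbxw11 library 2, -0.030 without Fbxw11 library 3 and -0.145 without library 3 of both groups. The causes were not tested. The planned edgeR and DESeq2 fits were not run, since the deposited unit is FPKM. Voom, plain read sums and leaving out library 3 of both groups were added after seeing the data. Depth limits S100a8 and the genes under 1 FPKM.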
